A study of Mus musculus with 24 samples.

Results

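The 50 genes described here are the protein-coding genes of the mouse proteasome and its close partners, chosen by gene symbol: each symbol begins with Psm, followed by 1 letter from a to g and a number. Of these, 49 were among the 15839 genes with reads in either line. By textbook role, 8 encode the alpha ring of the 20S core, 7 its constitutive beta ring and 4 the beta subunits of the immunoproteasome or thymus proteasome. A further 9 belong to the base and 8 to the lid of the 19S cap, 6 to other caps or their inhibitor and 7 to assembly chaperones. The last, Psmc3ip, carries the symbol but is a meiotic recombination cofactor and not a subunit. Another 4 genes match the symbol but are not protein-coding, and none of them had a read.

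The proteasome is the barrel-shaped protease that degrades ubiquitin-tagged proteins in the cytosol and nucleus. Alpha rings gate the barrel, beta rings hold the cutting sites, and the 19S cap recognises, unfolds and feeds in the substrate with a ring of ATPases. In muscle it degrades contractile proteins during wasting, and interferon can replace the catalytic beta subunits by immunoproteasome forms that favour peptides for MHC class I.

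The study paired C2C12, a mouse myoblast line that can form muscle fibres, with NSC34, a mouse motor-neuron-like hybrid line, and sequenced both on a Nanopore MinION. All libraries carried the wild-type genotype. For both lines there were 6 control libraries from cells kept alone and 6 from cells kept together with the other line over 3 days of co-culture, 24 libraries in 4 groups. The labels give neither the means by which co-cultured cells were separated before extraction nor the origin of the replicates (separate cultures or not), so p-values measure only the spread between these libraries. Each group rests on a single established line, and in bulk RNA fewer cells of a type and less RNA per cell cannot be told apart.

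The lines differed greatly in depth. C2C12 libraries held 121154 to 658075 reads and NSC34 libraries 88 to 30314, so the 12 NSC34 libraries together held 70865 reads against 3309635 in C2C12. NSC34 control 1, with 88 reads, held 1 read from a proteasome gene, control 6, with 822 reads, held 3, and co-culture library 2 supplied 30314 of the 55007 co-culture reads. All 13 muscle markers, among them Myog and Des, had reads in C2C12 and took 1.61% to 2.0% of control and 2.0% to 2.21% of co-culture reads. In NSC34 the muscle list had 2 reads in control and 5 in co-culture. The neuronal list had a median of 0.188% of NSC34 control and 0.260% of NSC34 co-culture reads against 0.0197% and 0.0182% in C2C12, but the motor neuron markers Slc18a3, Mnx1 and Lhx3 stood at 0 in all 4 groups. Of the same list, Stmn2 had 176 and 193 reads in C2C12 control and co-culture and Nefm 4 and 9, and both stood at 0 in NSC34.

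Proteasome genes took 31681 reads in C2C12, 0.957% of all, and 653 in NSC34, 0.921%. Of the 50 genes, 49 had a read in C2C12 and 48 in NSC34. Psma8, the testis form of an alpha subunit, had none in either line, and Psmb11, the beta subunit of the thymus, had 1 read in a C2C12 control library. Levels are given in CPM, the reads of a gene per 1000000 reads of its library. Levels of different genes are compared as CPM per kilobase of transcript, with ranks by CPM given for the highest.

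Promoter sequence is shown for 4 members on which the results below turn. Psmb5 and Psmb6 are catalytic beta subunits, and Psma1 and Psmd6 were called in opposite directions between the co-cultured lines. Those calls rest on few NSC34 reads, and their limits are given below. The letters come from RefSeq (GRCm38.p6), 5′ to 3′ on the gene's strand, and cover the part of the 250 bases before the annotated start that lies outside every annotated exon. Capitals mark matches, on either strand, to any of 7 short motifs: the antioxidant response element core TGACNNNGC, the TATA box TATAAA, the GC box GGGCGG, the CCAAT box, the ETS site CCGGAAG, TTCNNNGAA (GAS element) and the ISRE core, which is GAAA, 2 free letters and GAAA. The windows are chr14:54618023-54618245 (minus strand) for Psmb5, chr11:70525107-70525356 (plus strand) for Psmb6, chr7:114276119-114276366 (minus strand) for Psma1 and chr14:14120985-14121195 (minus strand) for Psmd6.
Psmb5: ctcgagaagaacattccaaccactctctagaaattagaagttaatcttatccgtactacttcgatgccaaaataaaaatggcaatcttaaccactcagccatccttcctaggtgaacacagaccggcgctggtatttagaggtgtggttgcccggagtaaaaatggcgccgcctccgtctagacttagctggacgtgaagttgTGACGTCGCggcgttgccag
Psmb6: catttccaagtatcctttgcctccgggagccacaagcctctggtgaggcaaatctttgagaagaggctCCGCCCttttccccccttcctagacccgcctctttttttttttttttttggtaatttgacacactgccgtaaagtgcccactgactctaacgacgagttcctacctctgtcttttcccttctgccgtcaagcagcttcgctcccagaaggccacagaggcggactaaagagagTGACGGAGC
Psma1: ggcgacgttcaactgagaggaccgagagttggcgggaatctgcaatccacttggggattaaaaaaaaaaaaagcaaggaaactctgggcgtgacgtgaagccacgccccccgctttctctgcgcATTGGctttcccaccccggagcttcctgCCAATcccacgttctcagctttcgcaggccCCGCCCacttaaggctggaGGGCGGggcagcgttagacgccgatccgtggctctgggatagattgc
Psmd6: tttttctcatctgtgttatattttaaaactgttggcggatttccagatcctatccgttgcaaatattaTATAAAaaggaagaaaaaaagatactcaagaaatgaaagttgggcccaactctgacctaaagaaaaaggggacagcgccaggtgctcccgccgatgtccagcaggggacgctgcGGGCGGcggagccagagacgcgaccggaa

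The Psmb5 and Psmb6 stretches each held 1 antioxidant response element core, the motif bound by NRF1 and NRF2, the transcription factors that control proteasome genes. Psmb6 also held a GC box, Psma1 held 2 GC boxes and 2 CCAAT boxes, and Psmd6 held a TATA box and a GC box. A promoter was found for 42 of the 50 members, and over the whole 250 bases the antioxidant response element core stood in 5 of the 42 against 11.5% of 27025 genes. The GC box stood in 22 of 42 members against 35.4% of all genes, the ETS site in 13 of 42 against 7.83% and the CCAAT box in 15 of 42 against 37.5%. The TATA box stood in 4 of 42 against 14.3%, TTCNNNGAA in 2 of 42 against 8.13% and the ISRE core in 3 of 42 against 3.46%. The other 6 motifs searched were another form of the antioxidant response element TGAGNNNGC (10 of 42, 16.3% of all genes), the nuclear respiratory factor site, GCGCA followed by TGCGC (1 of 42, 0.877%), the same site with the A left free (6 of 42, 4.23%), the E-box CANNTG (23 of 42, 69.3%), the NF-kappaB half-sites GGGA and CC with 4 free letters between (10 of 42, 19.7%) and the YY1 site GCCATNTT (2 of 42, 4.49%). The E-box, the GAS element and the nuclear respiratory factor site read the same on both strands. Member promoters had a median GC content of 57.6% against 52.4% over all genes, and the GC box and the ETS site are themselves rich in G and C. A match is a run of letters and not a measured binding site.

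In C2C12 controls the core was read more than the cap. Of the 14 members with the highest CPM per kb, 10 were 20S core genes, and 10 of 14 also by CPM. Over the 49 members with reads the 2 orders were alike (Spearman's rho across genes 0.945, a description), but the top differed. By CPM the beta subunit Psmb1 led at 623, ahead of Psma7 at 605. The alpha subunit Psma2 ranked 5 by CPM and 18 per kb, and Psmb6, Psmb5 and Psmb3 ranked 6, 7 and 8 by CPM. Per kb, Psma7, an alpha subunit, led with 657 ± 79.7 CPM per kb (SD, n = 6). It was followed by the beta subunit Psmb6, which carries the caspase-like site, at 569 ± 51.2, the structural beta subunit Psmb3 at 543 ± 73.4, and Psmb5, which carries the chymotrypsin-like site, at 482 ± 48.6 CPM per kb. Psma7 lay above Psmb6 by more than 1 SD of either gene, and Psmb6 and Psmb3 differed by less. The trypsin-like subunit Psmb7 stood lower, at 192 ± 40.9 CPM per kb. Psma1 was the lowest alpha subunit with reads, at 101 ± 29.5 CPM per kb.

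Within the 19S base, which holds the ATPases Psmc1 to Psmc6 and the scaffold subunits Psmd1 and Psmd2, levels ran from 306 ± 73.5 CPM per kb for Psmc5 to 20.8 ± 7.07 for Psmd2. The ubiquitin receptor Psmd4 stood at 148 ± 10.7 CPM per kb. In the lid, Psmd8 was highest at 202 ± 21.8 CPM per kb and Psmd3 lowest at 19.5 ± 7.04. Psmd14, the lid's deubiquitinating enzyme, stood at 86.5 ± 25 CPM per kb.

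Among the other caps, Psme2 stood at 233 ± 24.6 CPM per kb and its partner in the interferon-inducible activator, Psme1, at 51.6 ± 14.4. The nuclear activator Psme3 stood at 8.82 ± 4.09 CPM per kb, the large activator Psme4 at 14.6 ± 2.48 and the inhibitor Psmf1 at 4.10 ± 2.15. Of reads from the 4 activator genes, Psme1 and Psme2 together took 71.7% in controls and 73.3% in co-culture. Among the chaperones Psmg4 was highest at 153 ± 49.1 CPM per kb and Psmd5 lowest at 4.55 ± 1.72.

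**Figure D1:**
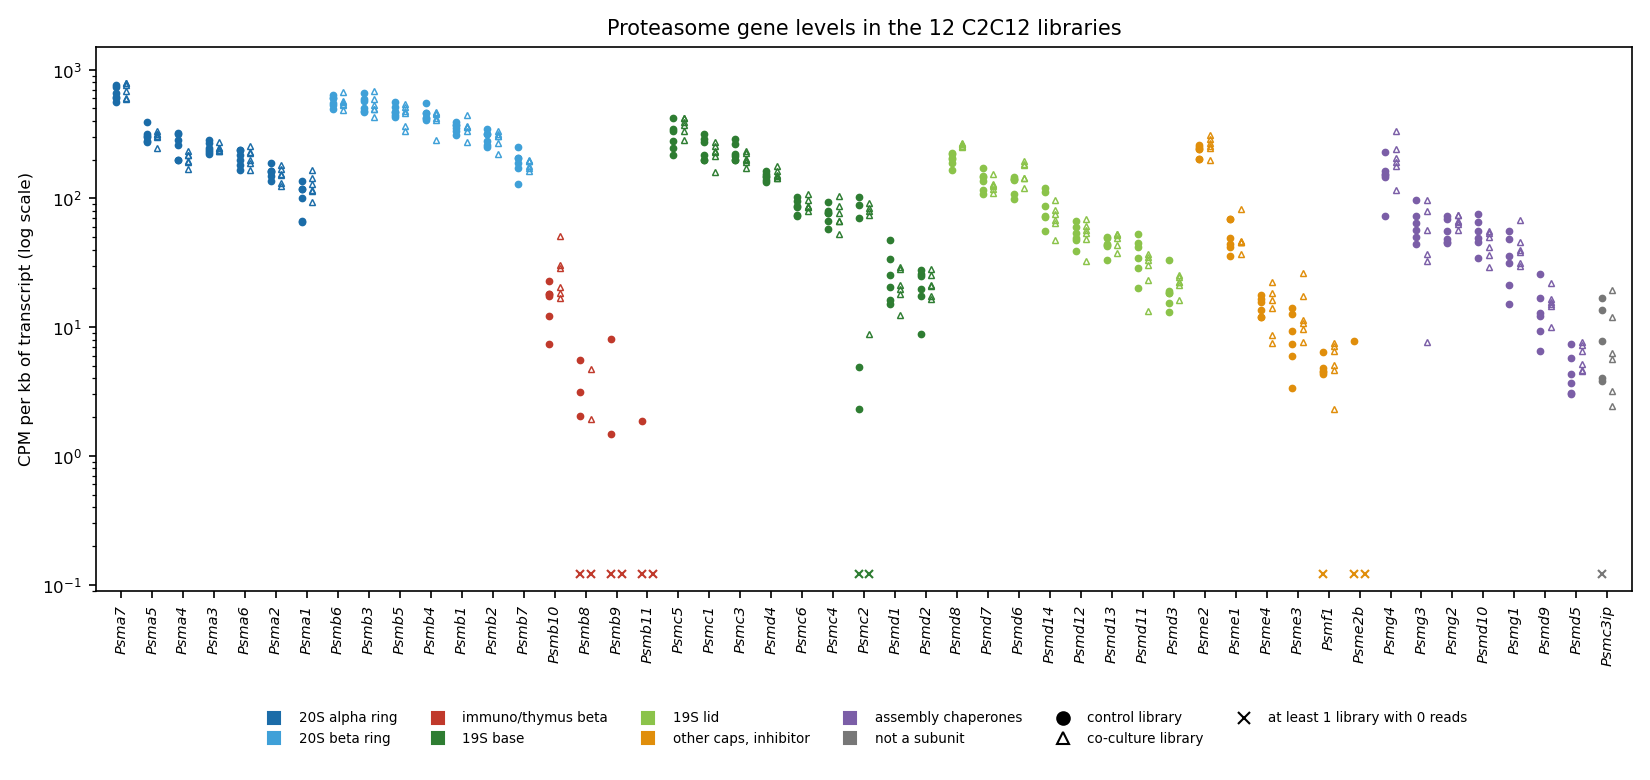
Level of each proteasome gene in the 12 C2C12 libraries (CPM per kb of transcript on a log axis, 1 point a library; filled circles control, open triangles co-culture, crosses at least 1 library with 0 reads), with genes ordered by class and level. Core genes sit mostly above 100 CPM per kb, the inducible beta subunits Psmb8 and Psmb9 at the bottom, and control and co-culture points overlap for nearly every gene.

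Psmc2, an ATPase of the base, varied more between libraries than the other members. Its control levels were 199, 135, 4.44, 0, 9.38 and 169 CPM in libraries 1 to 6, and its co-culture levels 17.1, 175, 153, 0, 142 and 160 CPM. Both groups thus held libraries above 100 CPM and libraries at or near 0, and what parts them was not tested.

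The 3 inducible catalytic subunits, which interferon brings in to form the immunoproteasome, were rare in C2C12. Psmb8, the inducible partner of Psmb5, had 4 reads in control and 2 in co-culture against 666 and 761 for Psmb5, so it made up 0.597% of the pair's reads (exact Clopper-Pearson 95% interval 0.163% to 1.52%) in control and 0.262% (0.0318% to 0.944%) in co-culture. Psmb9, the partner of Psmb6, had 2 reads in control, 0.283% of its pair (0.0343% to 1.02%), and 0 of 814 in co-culture, which allows a share of up to 0.369% by the limit of 3 reads. Intervals and limits cover counting error only.

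Psmb10, the partner of Psmb7, was the one inducible subunit read in every C2C12 library. It took 7.63% of its pair (5.09% to 10.9%; libraries 3.85% to 9.38%) in control and 10.7% (7.97% to 14.0%; libraries 7.41% to 22.9%) in co-culture. Its lowest, median and highest levels were 7.94, 19.1 and 24.8 CPM in control and 18.3, 26.9 and 55.7 CPM in co-culture. The groups overlapped and the pooled intervals overlapped. Psmb10 was too low for the filter of the main test, and without a filter, where 0.687% of genes were called, its log2 change was 0.66 (SE 0.395, edgeR adjusted p = 0.611). The 7 immune marker genes had 2 reads in C2C12 control and 4 in co-culture, with Ptprc at 0.

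**Figure D2:**
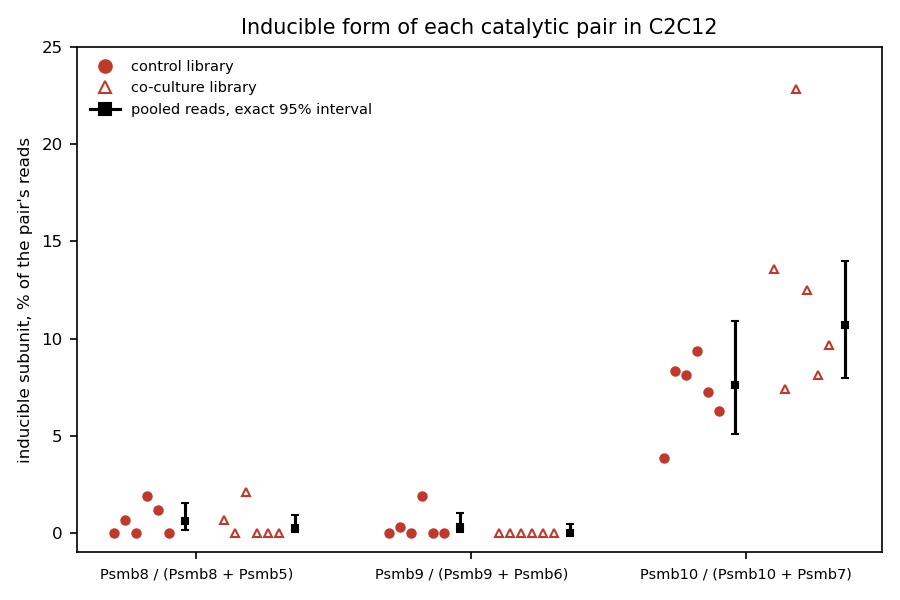
Reads of each inducible catalytic subunit as a percent of the reads of its pair in C2C12 (circles control libraries, triangles co-culture libraries, squares pooled reads with the exact 95% interval). Psmb8 and Psmb9 stay near 0, Psmb10 lies at 7.63% in pooled control and 10.7% in pooled co-culture, and the Psmb10 intervals overlap.

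Did co-culture with the other line change proteasome genes in C2C12? No member passed the test. Counts per gene were compared with edgeR's quasi-likelihood test over the 2570 genes with enough reads, and a gene was called at a Benjamini-Hochberg adjusted p under 0.05. Of the 37 members tested 0 were called, against 37 of 2570 genes or 1.44% overall. The other 13 members did not pass the filter on low counts. Without adjustment 4 of the 37 had p under 0.05, as did 378 of all genes, and 0 members were called by DESeq2 (24 members with an adjusted p, 5.7% of genes called) or by limma-voom (1.28% of genes called).

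The median log2 fold change over the 37 was -0.01 against 0.00 for all genes tested, with 17 above and 20 below 0. This split moved with the filter: without one the same 37 had a median of 0.07, with 27 above and 10 below 0, and the 2570 genes one of 0.09, with 63.7% above 0. For 26 of the 37 (70.3%, against 51.1% of all genes tested) the 95% interval of the change lay within 1.5-fold in either direction. By role this held for 7 of 7 constitutive beta subunits, 5 of 7 alpha subunits, 7 of 9 base and 4 of 7 lid subunits, 3 of 3 other caps and 0 of 4 chaperones. Intervals widen where reads are few, and neither count was matched for level. In C2C12 control the tested chaperones stood at 58.0 to 83.0 CPM and the beta ring at 223 to 623 CPM. The split by role thus cannot show whether stability differed between the roles. The beta ring had log2 changes between -0.10 for Psmb4 and 0.02 for Psmb1. The muscle markers took a median of 1.80% of reads in control and 2.05% in co-culture, and their part in these values was not tested.

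Psmd8, the subunit that joins the lid last in assembly, came nearest to the threshold. Its lowest, median and highest levels were 246, 301 and 333 CPM in control and 371, 383 and 397 CPM in co-culture. All 6 co-culture libraries lay above all 6 controls. The groups lay apart in this way for 1 of 37 members and for 44 of 2570 genes, or 1.71%. Its log2 change was 0.34 (SE 0.0923, 95% interval 0.15 to 0.53), with an edgeR adjusted p of 0.0587 that ranged from 0.0556 to 0.157 over the other settings, so Psmd8 was not called.

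The lid subunit Psmd6 and the chaperone Psmg4, which helps to build the alpha ring, were also higher on average. Psmd6 had 136, 193 and 202 CPM (lowest, median, highest) in control and 167, 225 and 271 CPM in co-culture, a log2 difference of 0.32 (SE 0.143, edgeR adjusted p = 0.282). Psmg4 had 39.9, 83.1 and 124 CPM in control and 63.4, 108 and 182 CPM in co-culture, a log2 difference of 0.53 (SE 0.246, edgeR adjusted p = 0.314). Both pairs of groups overlapped and neither gene was called.

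The alpha subunit Psma4 was lower on average in co-culture. It had 230, 315 and 373 CPM in control and 195, 241 and 271 CPM in co-culture, a log2 difference of -0.36 (SE 0.131, edgeR adjusted p = 0.168, range 0.0718 to 0.611 over the other settings). The groups overlapped. Psmc5, the most abundant ATPase, had a log2 difference of 0.28 (edgeR adjusted p = 0.375) and the lid subunit Psmd11 one of -0.43 (edgeR adjusted p = 0.392). Neither passed the test.

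**Figure D3:**
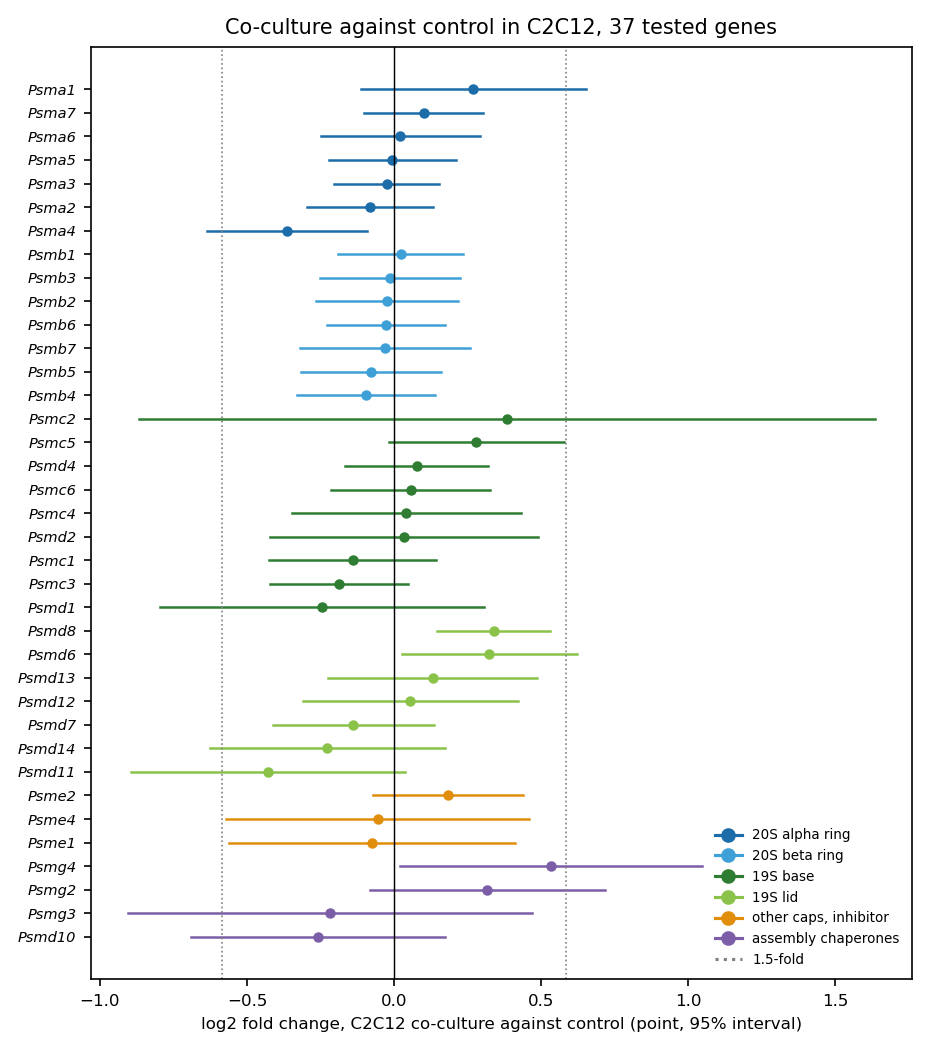
Fitted log2 fold change of the 37 tested proteasome genes, C2C12 co-culture against control (points), with the 95% interval (lines), grouped by class; dotted lines mark 1.5-fold. The 7 constitutive beta subunits all lie inside the dotted lines, and only Psmd8, Psmd6, Psmg4 and Psma4 have intervals that leave out 0.

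Genes that work with the proteasome gave a like picture in C2C12, with 0 called on any of 5 lists. Of 13 proteasome genes outside the symbol pattern 6 were tested, and all 6 lay above 0. The 2 with the smallest p were the cap-associated Txnl1 (log2 0.36, edgeR adjusted p = 0.257) and the ubiquitin receptor Adrm1 (log2 0.46, edgeR adjusted p = 0.325). Of 17 ubiquitin and shuttle genes 10 were tested, 7 above and 3 below 0. The proteasome's own regulators Nfe2l1 and Nfe2l2 differed by -0.25 and -0.13 on the log2 scale, and of 16 muscle ubiquitin ligases 2 were tested, Trim63 with a log2 change of 0.21 (edgeR adjusted p = 0.769) and Nedd4. Of 13 MHC class I genes 5 were tested, and the chaperone Canx had the smallest p (log2 -0.49, edgeR adjusted p = 0.129). Over the 25 genes tested on these lists, 3 had an unadjusted p under 0.05, and DESeq2 and limma-voom also called 0.

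In NSC34 the reads were too few to test a proteasome gene for co-culture under the main filter, which left 49 genes and 0 members. With every gene of at least 10 reads in total, 21 members were tested and 0 were called by edgeR, against 7 of 1109 genes or 0.631%, and 1 member had an unadjusted p under 0.05, as did 96 of the 1109. Without a filter edgeR called 0 of 48 members and 0 of 7557 genes, and 4 members had an unadjusted p under 0.05, as did 387 of all genes. Core genes led here too: over both groups Psmb4 had 620 CPM per kb (52 reads), Psmb1 563 (70 reads), Psma7 552 (36 reads) and Psma4 523 (43 reads). The test of a difference in the co-culture effect between the lines, in a joint fit of all 24 libraries, called 0 of 27 members and 0 of 1328 genes by edgeR, with 5 and 160 at an unadjusted p under 0.05. Limma-voom also called 0 of 27, and DESeq2 gave no member an adjusted p.

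The lines were compared in the joint fit, separately for control and for co-cultured libraries. Line and deposited table cannot be told apart, and the scaling between the lines mattered. With TMM factors (edgeR's composition scaling) the median of all 1328 genes lay at -0.94 on the log2 scale in controls and -0.38 in co-culture, NSC34 against C2C12. With plain library totals it lay at -0.09 and 0.06. Both are given below, and among the 27 members that passed the joint filter a line difference is described one by one only where edgeR called it under both.

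In controls, TMM called 14 of 27 members against 536 of 1328 genes or 40.4%: 1 member was higher in NSC34 (5.8% of genes) and 13 were lower (34.6% of genes). Library totals called 3 members against 22.9% of genes, 2 higher (10.8% of genes) and 1 lower (12% of genes). In co-cultured libraries TMM called 12 members against 52.3% of genes, 2 higher (16.9% of genes) and 10 lower (35.3% of genes). Library totals called 11 members there against 51.6% of genes, 5 higher (26.5% of genes) and 6 lower (25.1% of genes). The share of the 27 that was called in co-culture thus lay near that of all genes. The other 23 members did not pass the joint filter.

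The alpha subunit Psma1 was called higher in NSC34 in both conditions under both scalings. Its lowest, median and highest levels were 78.1, 130 and 164 CPM in C2C12 control and 0, 469 and 1081 CPM in NSC34 control. In co-culture they were 111, 147 and 198 CPM in C2C12 and 0, 398 and 994 CPM in NSC34. The NSC34 values rest on 0 to 5 reads a control library and 0 to 12 a co-culture library, and in most of these libraries 1 read alone gives a level above the C2C12 range, so the order of single libraries supports no higher level. In the deepest, co-culture library 2, 12 reads gave 396 CPM against at most 198 CPM in C2C12.

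The log2 difference of Psma1 in co-culture was 1.12 (SE 0.361, edgeR adjusted p = 0.00954) under TMM and 1.56 (SE 0.365, edgeR adjusted p = 0.000537) under library totals. In controls the values were 1.67 (SE 0.520, edgeR adjusted p = 0.0109) and 2.52 (SE 0.542, edgeR adjusted p = 0.000614). The TMM calls rested on single libraries: without NSC34 co-culture library 2 the adjusted p was 0.0975, and without NSC34 control 5 it was 0.161. Psma1 took 15.5% of alpha ring reads in NSC34 (34 of 219, exact 95% interval 11% to 21.0%) and 5.17% in C2C12 (4.72% to 5.65%), a ratio that needs no scaling between the lines.

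Psma4, another alpha subunit, was called higher in co-cultured NSC34 under both scalings. It had 195, 241 and 271 CPM in C2C12 co-culture and 232, 593 and 1199 CPM in NSC34 co-culture, where only 1 library lay inside the C2C12 range. In NSC34 co-culture libraries 4 and 6, of 3017 and 2807 reads, 1 read alone gives a level above that range. The order of single libraries thus supports no higher level. The log2 difference was 0.90 (SE 0.297, edgeR adjusted p = 0.0114) under TMM and 1.34 (SE 0.299, edgeR adjusted p = 0.000324) under library totals. Under TMM it was lost without NSC34 co-culture library 2 (adjusted p = 0.0680) or library 3 (adjusted p = 0.0523), and without a filter it had the opposite sign (-0.17) and was not called. Psma1 was not called without a filter either.

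A group of 6 members was called lower in co-cultured NSC34 under both scalings. These calls stood in each of the 9 other settings and with any 1 of the 24 libraries left out. They were 3 ATPases of the base (Psmc1, Psmc3, Psmc5), 2 lid subunits (Psmd6, Psmd8) and the alpha subunit Psma2. No member passed the filter within NSC34, so these 6 entered the joint fit by their C2C12 levels, on 3 to 10 NSC34 co-culture reads. Such a filter favours genes that are low in NSC34, so the calls alone do not establish a lower level. Psmc5 had 373, 506 and 561 CPM in C2C12 co-culture and 0, 52.3 and 331 CPM in NSC34 co-culture. Psmc3 had 277, 324 and 381 CPM against 0, 33.0 and 232 CPM, and Psmd8 had 371, 383 and 397 CPM against 0, 133 and 356 CPM. For these 3 genes every NSC34 library lay below every C2C12 library, on 7, 4 and 6 NSC34 reads in all.

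The log2 difference of Psmc5 was -2.28 (SE 0.469, edgeR adjusted p = 0.000112) under TMM and -1.87 (SE 0.477, edgeR adjusted p = 0.00132) under library totals. That of Psmc3 was -2.53 (SE 0.476, edgeR adjusted p = 5.27e-05) and -2.11 (SE 0.502, edgeR adjusted p = 0.000778), and that of Psmd8 was -2.14 (SE 0.375, edgeR adjusted p = 1.37e-05) and -1.72 (SE 0.395, edgeR adjusted p = 0.00101). In controls Psmc3 had 0 reads in NSC34 against 403 CPM in pooled C2C12. By the limit of 3 reads over the group, which covers counting error only, this is at least 2.13-fold lower. Psmc3 was called there under both scalings (edgeR adjusted p = 0.000182 and 0.00528). It entered the fit by its C2C12 level there too, so the call alone does not establish a lower level.

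Psmc1, Psmd6 and Psma2 rested on few NSC34 reads, 4, 3 and 10. Psmc1 had 198, 288 and 340 CPM in C2C12 co-culture and 0, 68.8 and 356 CPM in NSC34 co-culture, Psmd6 167, 225 and 271 against 0, 16.5 and 356 CPM, and Psma2 362, 446 and 530 against 0, 52.3 and 356 CPM. For Psmc1 and for Psmd6 the highest NSC34 library, on 1 read, lay above every C2C12 library, and for Psma2 every NSC34 library lay below every C2C12 library. Under library totals the log2 differences were -1.88 (SE 0.566, edgeR adjusted p = 0.00542), -1.94 (SE 0.598, edgeR adjusted p = 0.00725) and -1.24 (SE 0.388, edgeR adjusted p = 0.00731) in that order. Psma2 and Psma1 belong to the same ring and were called in opposite directions.

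**Figure D4:**
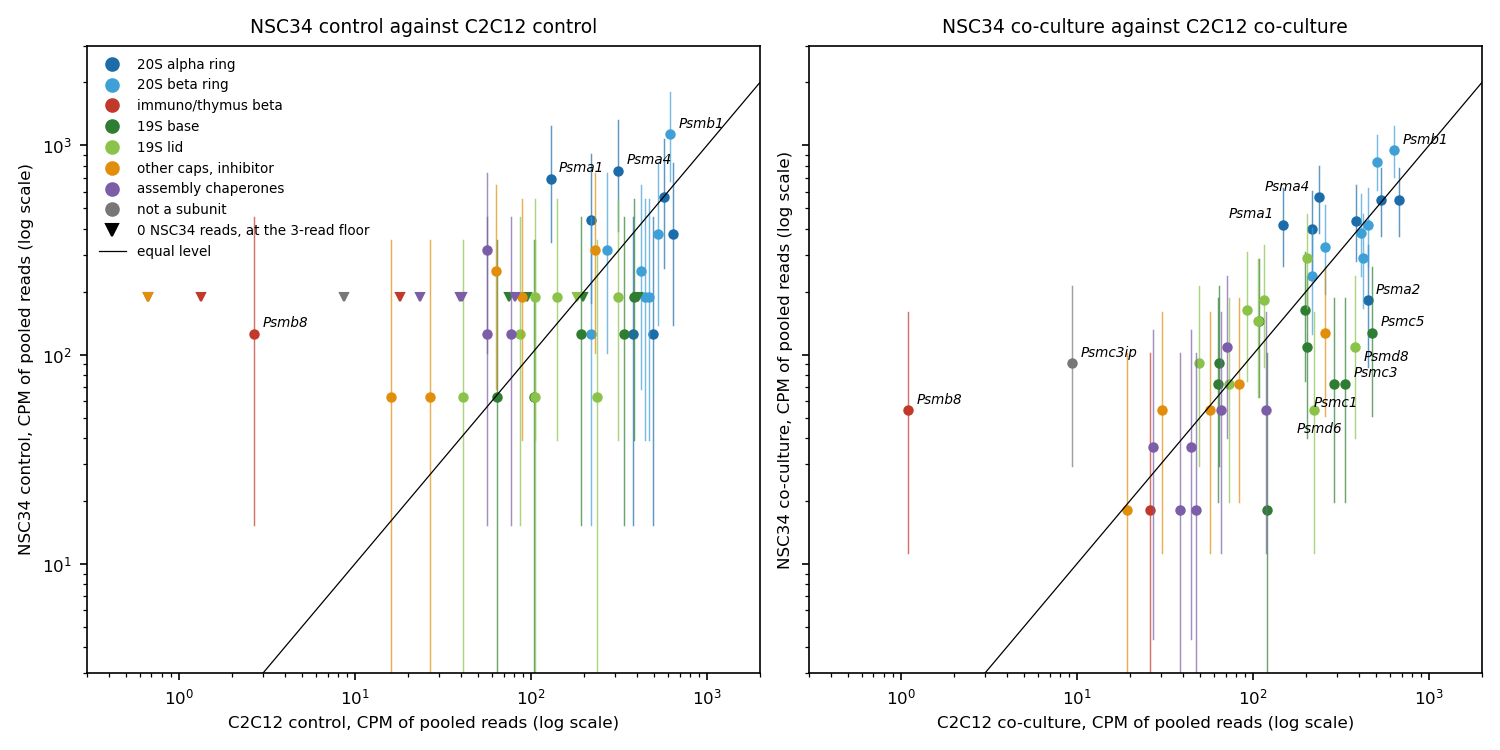
Level of each proteasome gene in pooled NSC34 reads against pooled C2C12 reads (CPM on log axes), controls left and co-culture right; vertical lines are exact 95% intervals of the NSC34 level, and triangles mark genes with 0 NSC34 reads at the limit of 3 reads. Psma1 and Psma4 lie above the line of equal level, and Psmc1, Psmc3, Psmc5, Psmd6, Psmd8 and Psma2 below it in co-culture.

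Cap and core genes stood in a different ratio in the 2 lines. Reads of the 19S made up 34.9% of all 19S and 20S core reads in C2C12 control (exact 95% interval 34.1% to 35.7%; libraries 32.8% to 36.4%) and 35.8% in C2C12 co-culture (35.1% to 36.6%; libraries 33.4% to 38.6%). In NSC34 co-culture the share was 23.3% (109 of 468 reads, 19.5% to 27.4%; libraries 17.1% to 29.2%), so every library lay below every C2C12 library, and without library 2 it was 22.3% (16.7% to 28.6%). In NSC34 control it was 20.4% (23 of 113, 13.4% to 29.0%), where control 1 stood at 100% on 1 read, control 6 at 0, and the other 4 between 13.0% and 23.5%.

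The gap lay mostly in the base. The 6 ATPases took 21.3% of ATPase and core reads in C2C12 (20.8% to 21.8%) and 8.0% in NSC34 (39 of 488, 5.74% to 10.8%). As a share of all reads, base genes took 0.185% in C2C12 and 0.0804% in NSC34 (0.0609% to 0.104%), whereas lid genes took 0.123% and 0.106% (0.0833% to 0.133%) and core genes 0.562% and 0.634% (0.577% to 0.695%). The median over genes of transcript length was 1160 bases in the core and 1624 bases in the 19S, and over all genes the line difference had a rank correlation with length of 0.07 in co-culture, against -0.24 over the 27 members. These shares describe pooled reads, without a test, and line and depth cannot be told apart in them.

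**Figure D5:**
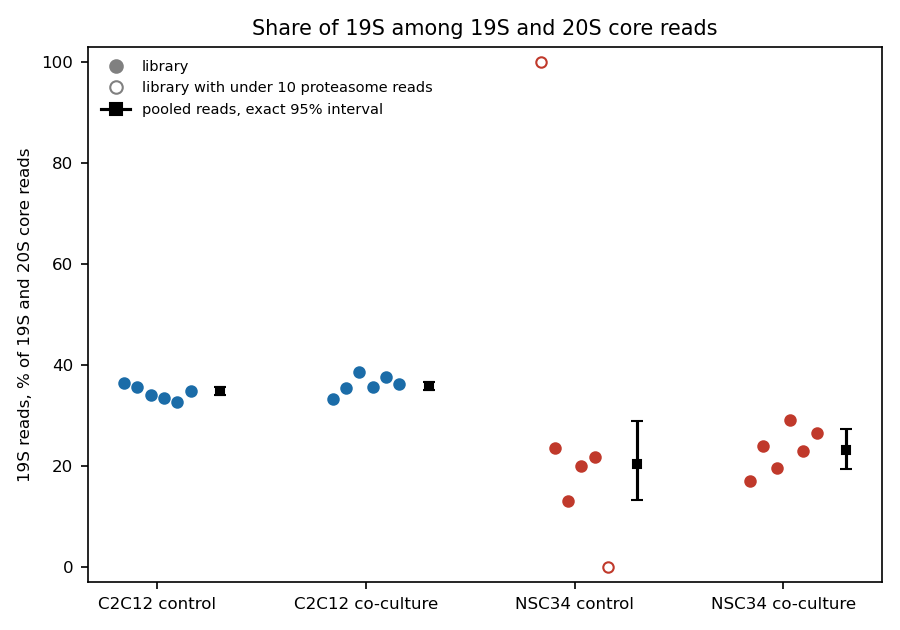
Reads of 19S genes as a percent of 19S and 20S core reads (points libraries, open points libraries with under 10 proteasome reads, squares pooled reads with the exact 95% interval). C2C12 libraries lie between 32.8% and 38.6%, and the 6 NSC34 co-culture libraries between 17.1% and 29.2%.

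Psmb8 took a larger share of reads in NSC34, on very few reads. It had 5 reads in the 70865 of NSC34, which is 70.6 CPM (exact 95% interval 22.9 to 165), and 6 in all C2C12 reads, 1.81 CPM (0.665 to 3.95). They came from 3 of the 12 NSC34 libraries: 2 in control 2, 1 in co-culture 1 and 2 in co-culture 2. The 3 inducible genes, with 5 of 7 NSC34 reads from Psmb8, took 7 of 67 catalytic reads in NSC34 (10.4%, 4.30% to 20.3%) and 82 of 3747 in C2C12 (2.19%, 1.74% to 2.71%), and without co-culture library 2 they took 3 of 28 (10.7%, 2.27% to 28.2%). Psmb10 did not share this: it took 1 of 16 reads of its pair in NSC34 (6.25%, 0.158% to 30.2%) and 74 of 793 in C2C12 (9.33%, 7.40% to 11.6%). Psmb8 did not pass the joint filter and so has no value under both scalings. Without a filter it was called higher in co-cultured NSC34 (log2 3.41, SE 1.16, edgeR adjusted p = 0.0275, with 1.74% of genes called higher) and not in controls (log2 3.15, edgeR adjusted p = 0.161, with 0.612% called higher). All 7 immune markers were at 0 in NSC34.

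Of the listed partner genes, 16 were tested between the lines, and 3 of those called under both scalings in co-culture are described. H2-K1, a class I heavy chain, had 11 reads in NSC34 co-culture and 24 in C2C12 co-culture. It did not pass the filter within C2C12, so its call as higher in NSC34 supports no difference, and its close paralogs make the assignment of its reads uncertain. The class I light chain B2m was called lower (log2 -1.55 and -1.13, edgeR adjusted p = 4.42e-05 and 0.00142). So was the unfolding ATPase Vcp (log2 -1.42 and -1.0, edgeR adjusted p = 0.00421 and 0.0423). In controls Vcp stood at 0.02 under TMM and 0.87 under library totals and was not called. B2m stood there at -2.34 and -1.49 and was called under TMM only. Neither gene passed the filter within NSC34, so these calls alone do not establish a lower level.

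Reads of some members could belong to near copies. By sequence, 21 members shared at least 300 bases at 90% identity or more with another gene, and for 9 of them that gene had reads. Psmb5 shared 796 bases at 98.9% with the pseudogene Gm3375, which had 49 reads against 1446 for Psmb5, and Psma3 shared sequence with Gm609, which had 22 reads. Psmc2, whose levels varied most, shared 679 bases at 90.4% with D10Wsu102e, which had 741 reads against 361 for Psmc2. It shared stretches with many other genes that had reads. Psme2 and Psme2b shared 794 bases at 99.4%, with 823 and 2 reads. Exons of Psmb7, Psmc3, Psmd13, Psmb9, Psmd1, Psme1 and Psmc3ip overlap those of a gene with reads on the other strand. The overlap runs from 14 bases for Psme1 to 405 for Psmb7. Strand use in counting is not given in the sources used here, so reads that lie within such a stretch cannot be told apart. How many reads do was not tested.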

How the data were processed

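The authors deposited 1 table of raw read counts per Ensembl transcript for each line. The build is GRCm38, per the submitters' processing notes, and no source used here names the aligner, the counter or the annotation release. Transcripts were summed per gene with GENCODE M21, which matched 37415 of 37677 C2C12 transcripts and 10374 of 10427 NSC34 transcripts. CPM per kb used a gene's mean GENCODE transcript length, weighted by the reads of its transcripts.

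Counts were tested with edgeR 4.0.16 (R 4.3.3): filterByExpr, TMM, glmQLFit and glmQLFTest, per line, and in 1 fit of 4 groups between lines, with adjustment over all genes tested. Alternatives used limma 3.58.1, DESeq2 1.42.0, other scalings and filters, a length trend, a replicate block and left-out libraries. Each library's total count is its depth. Near copies were found with BLAST+ 2.17.0.

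The members and lists were chosen with earlier results of these data known. Every member was placed by its class, and members were named for level, smallest p or largest difference. From partner lists the genes called or, where none was, those with the smallest p were named. In tests on simulated counts of these depths, the fit between lines with TMM called unchanged genes lower in NSC34 controls. With library totals it did not. Those counts were drawn in proportion to library totals, from a single composition for both lines. The simulation thus favoured library totals from the start and cannot decide which scaling is right for these data. Both are shown. That pairing, the length trend between lines, the fixed gene set for left-out libraries, the 300 bases required of near copies and the promoters and capitals shown were chosen after seeing the data. The result of 1 listed partner gene is not reported here.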

Additional observations from a re-analysis of the deposited data

Results flagged for a closer look

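Values far from the other 5 of their group were looked for in 96 groups of 6 libraries, and 8 were found, against about 5% of groups that chance gives. In C2C12 control 6, Psma5 stood highest at 482 CPM (next library 389) and Psmd3 highest at 71.6 CPM (next 41.0). In C2C12 co-culture 1, Psma3 was highest at 595 CPM (next 537). In co-culture 4, Psmb4 was lowest at 337 CPM (next 478), and in co-culture 6, Psme1 was highest at 93.3 CPM (next 52.8). All proteasome genes together took 1.02% of reads in C2C12 control 2, above the 0.930% of the next control. In NSC34 control 1 the 19S genes took 1.14% of reads and 100% of 19S and 20S core reads, both from 1 read in a library of 88.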

How the results depend on the processing

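In C2C12, 0 members were called under every alternative and with any 1 library left out. The median log2 change stayed between -0.05 and 0.01 with single libraries left out. Over the other settings, apart from the fits that left out 1 library, 14 of 37 members changed sign in 23 of 320 values, none past the threshold. In NSC34 0 members were called under every alternative run, and 0 in the difference between the lines, where DESeq2 gave no member an adjusted p and so no value.

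The line contrasts moved with the scaling and the filter. The 14 members called in controls (40.4% of all genes) became 5 with RLE size factors (24.5% of all genes), 3 with library totals (22.9%), 8 with DESeq2 (32.3%), 9 with limma-voom (38.3%), 22 of 49 without a filter (8.67%; 0 higher, 22 lower) and 6 without the NSC34 libraries under 1000 reads (31.3%). With 1 library left out they were 9 to 14, with 9 without NSC34 control 2. The 12 called in co-culture (52.3%) became 23 of 49 without a filter (13.3%) and 9 to 12 with 1 library left out. Shares of all genes are not given for fits with 1 library left out, so those counts show only how the calls moved. Without a filter Psmb1 turned to -1.16 in controls from 0.08, and in co-culture Psmb1 turned to -0.81 from 0.26, Psmb4 to -0.73 from 0.35, Psmb2 to -1.05 from 0.01 and Psma4 to -0.17 from 0.90, all on the log2 scale. The cause was not tested.

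Replicate numbers are shared between groups, and correlations of same-numbered libraries ran from -0.05 to 0.10 in C2C12 and from -0.23 to 0.32 in NSC34. These values show no clear pairing but cannot exclude it, and those of NSC34 rest on 49 genes in shallow libraries. Number 4 matched its own partner best in both lines. With the replicate block 0 members were called in C2C12 (1.01% of all genes), and in NSC34 0 members were tested. The block gave 13 calls between controls, 12 between co-cultured libraries and 0 in the difference, and the C2C12 median was -0.02. Without the block the line calls were 14 (40.4% of all genes) and 12 (52.3%). Shares of all genes with the block are not given for the lines, so these counts show nothing particular to proteasome genes. Leaving out C2C12 controls 1 and 4, the shallowest, was among the alternatives for C2C12. Depth limits NSC34: 0 reads allows up to 189 CPM in pooled controls and 54.5 CPM in pooled co-culture.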
